A study of Mus musculus with 64 samples.

Results

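The data described here are the RNA-Seq libraries of sorted male germ cells taken at P10.5, in days after birth, 3 from Morc1tg/tg mice and 4 from Morc1tg/+ mice. These 7 libraries were chosen by the stage, cell population and genotype that their labels give, out of 47 RNA-Seq libraries in a series of 64 samples, and every gene listed for them was examined. The comparison asks which genes and which cellular functions differ in their RNA level when the germ cells carry no intact copy of Morc1. The mice were FVB/N animals of the Morc1tg line, in which a tyrosinase (Tyr) transgene inserted into Morc1 and removed its exons 2 to 4. The Morc1tg/tg mice carried the insertion on both copies, and the Morc1tg/+ controls also carried 1 inserted copy, so that every library came from a transgenic mouse. Each library came from 1 mouse. Testis cells were sorted for low side scatter, high EpCAM and no MHC class I, 10 ng of total RNA was depleted of ribosomal RNA, and libraries were made with the NuGEN Ovation kit for degraded RNA. Other libraries of the series that were compared with these came from P10.5 whole testis (3 Morc1tg/tg and 2 Morc1tg/+ mice, made with the TruSeq kit) and from germ cells sorted at P2.5 by the Oct4-IRES-eGfp reporter in mice of mixed background (2 Morc1tg/tg and 3 Morc1tg/+). An alternative fit also took in germ cells sorted by the same reporter at E16.5 and E18.5, in days of embryonic development. It had 2 Morc1tg/tg and 2 Morc1tg/+ libraries of each age. Another alternative added 1 wild-type P10.5 whole testis library to the controls. None of these other libraries is among the 7.

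MORC1 is a nuclear ATPase of the Microrchidia family that is made in male germ cells, and it is known for the silencing of transposable elements. At P10.5 the mouse testis holds spermatogonia that renew themselves under the growth factor GDNF, spermatogonia that have begun to differentiate in response to retinoic acid, and the first cells that enter meiosis. A change in a marker of 1 of these stages in sorted cells may come from another share of cells of that stage or from another amount of RNA per cell. The 2 cannot be told apart in bulk RNA.

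Of 26385 genes in the files, 14019 passed the filter on low counts and were tested, and 6541 were without a read in all 7 libraries. Reads counted on genes ranged from 7474627 to 9641942 per library. The log2 levels of libraries of 1 genotype correlated at 0.981 to 0.986 and those of different genotypes at 0.969 to 0.977. The first principal component, with 38.7% of the variance, separated the genotypes. On the second (13.9%) the 4 Morc1tg/+ libraries were spread out, from -19.6 in replicate 2 to 23.5 in replicate 4. P-values measure the spread between these libraries. Changes are given below as the log2 fold change of Morc1tg/tg over Morc1tg/+ from the edgeR quasi-likelihood fit. The standard error beside it was derived from the test, as the absolute log2 fold change divided by the square root of the F statistic. A gene was called at a Benjamini-Hochberg adjusted p under 0.05. Levels are RPKM, read counts scaled to gene length and to library size.

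Morc1 itself was lower in every Morc1tg/tg library. Its level was 8.15, 10.1, 11.1 and 8.97 RPKM in the 4 Morc1tg/+ libraries and 4.77, 5.58 and 4.36 RPKM in the 3 Morc1tg/tg libraries. The fall was 1.05 ± 0.136 on the log2 scale (adjusted p = 6.97e-06), and the groups did not overlap. The count covers the whole gene, and the part of the transcript from which the remaining reads come was not analysed here. Tyr, the gene on the transgene, had 0.198, 0.0646, 0.203 and 0.0623 RPKM in Morc1tg/+ and 0.282, 0.308 and 0.473 RPKM in Morc1tg/tg. The groups did not overlap, but the difference did not pass the test (adjusted p = 0.125). In whole testis of the same line Tyr was called higher (0.75 ± 0.160, adjusted p = 0.0150).

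Of the 14019 genes tested, 1712 were called (12.2%), 901 of them higher (6.43%) and 811 lower (5.79%) in Morc1tg/tg. Most changes were small. The called rises had a median of 0.44 on the log2 scale and the called falls a median of -0.61, and the median over all tested genes was 0.00. A rise of over 1 on the log2 scale was seen in 107 genes and a fall of that size in 163. Of these 107 rises, 76 were of genes with a mean under 1 RPKM in Morc1tg/+, and of the 163 falls, 101 were of genes with a mean under 1 RPKM in Morc1tg/tg. The rises were found in abundant genes more often than the falls: 51.8% of the genes called higher had a mean over 10 RPKM, against 28.2% of those called lower and 31.3% of all tested genes. In 851 of the 901 genes called higher, all 3 Morc1tg/tg libraries lay above all 4 controls, which was so in 1660 of all 14019 genes. The number of calls depended on the model. A limma-trend fit of log2 RPKM called 782 genes, 75.3% of them higher against 52.6% in the main fit. It used no TMM factors, and its median over all genes was 0.07. A fit over all 20 sorted germ cell libraries of the 4 stages called 125, of which 123 were among the 1712. Without Morc1tg/+ replicate 1 the genes called higher numbered 573 and without Morc1tg/tg replicate 2 they numbered 564. Calls that held under every alternative numbered 100, with 65 higher and 35 lower.

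Most of the 12 largest rises were of genes with a mean under 1 RPKM in the controls, Cd209c being the exception. Poteg had no read in any of the 4 Morc1tg/+ libraries and 10.6, 6.90 and 11.6 RPKM in the Morc1tg/tg libraries (783 reads in all), at least 340-fold higher when the controls are set to a floor of 3 reads over the group (adjusted p = 1.24e-13). Gm1698, a predicted gene, had 0.0521, 0.0238, 0.0267 and 0 RPKM in Morc1tg/+ and 11.5, 10.9 and 12.0 RPKM in Morc1tg/tg, a rise of 8.53 ± 0.302 (adjusted p = 8.25e-18). The 12 rises were chosen among called genes whose groups did not overlap. The 2 genes lie on the same strand of chromosome 8 in mm9, the build of the files, Poteg at chr8:28558142-28605644 and Gm1698 at chr8:28714823-28730924.

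Col6a3, which encodes a chain of collagen VI, had 0.0805, 0.0798, 0.138 and 0.0148 RPKM in the controls and 6.11, 7.85 and 8.80 RPKM in Morc1tg/tg. Its rise of 6.49 ± 0.220 was the one with the smallest adjusted p of all genes (5.13e-18). Cd209c, a C-type lectin receptor gene of the DC-SIGN group, was the most abundant of the 12 largest rises, at 3.77, 3.10, 3.35 and 1.42 RPKM in Morc1tg/+ and 40.5, 47.0 and 45.4 RPKM in Morc1tg/tg (3.84 ± 0.162, adjusted p = 4.86e-16). Clec2g, another C-type lectin gene, had 3 reads in the controls together and 392 in Morc1tg/tg (mean 3.32 RPKM, 7.19 ± 0.532). Ctsh, the lysosomal protease cathepsin H, rose from a mean of 0.401 to 13.7 RPKM (4.96 ± 0.252), and Gdpd3, a phosphodiesterase domain gene, from 0.347 to 8.47 RPKM (4.52 ± 0.400). Slc15a2, a proton-coupled peptide transporter, rose from 0.348 to 6.58 RPKM (4.15 ± 0.258). Ky, a muscle protein, rose from 0.744 to 9.87 RPKM (3.65 ± 0.180). The calls of these 9 genes held under every alternative. Slco1a5 (4.78 ± 0.613), Mup3 (4.30 ± 0.875) and a gene listed as 7SK (4.42 ± 0.917) also rose, with means of 1.26, 1.504 and 4.11 RPKM in Morc1tg/tg, but were not called in the fit over 20 libraries. Mup3 belongs to a family of near-identical copies, and since the authors kept only reads with a single mapped location, reads shared by copies were lost. The gene listed as 7SK lies on the same strand within Slco1a5, so that reads of these 2 may not be told apart.

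**Figure D1:**
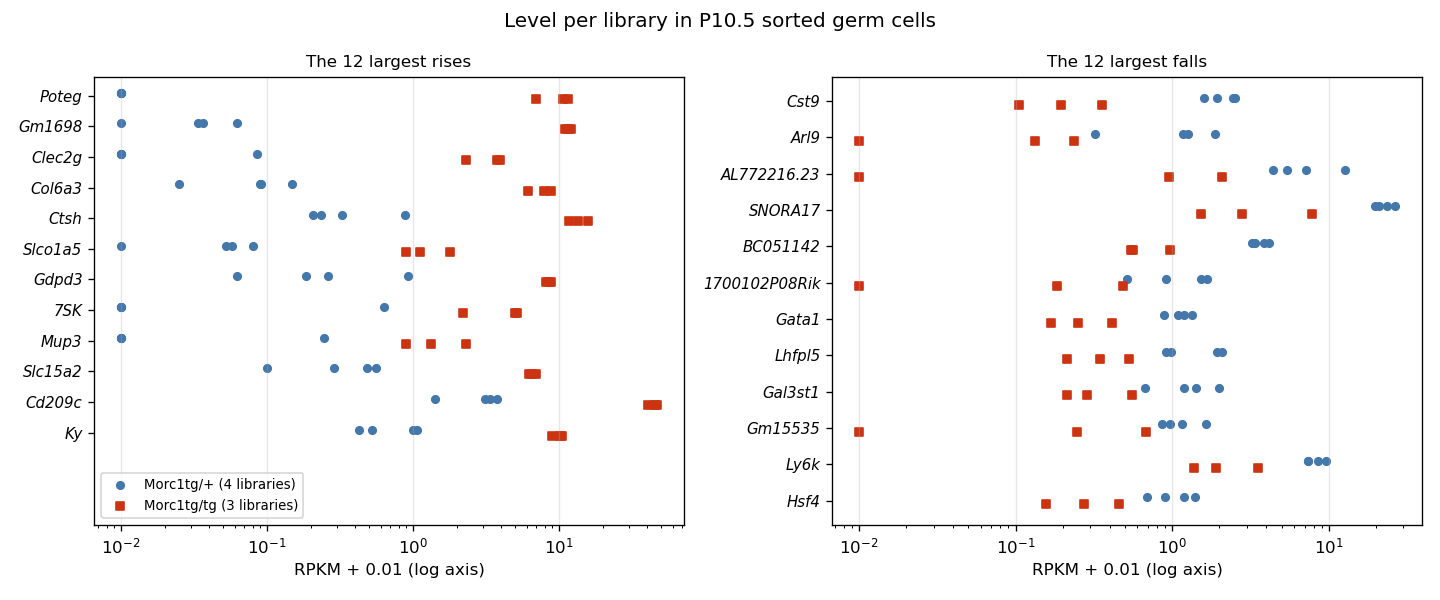
Level of the 12 genes with the largest rises (left) and the 12 with the largest falls (right) in each of the 7 libraries, as RPKM + 0.01 on a log axis, with points for Morc1tg/+ and squares for Morc1tg/tg. The genes were chosen so that the 3 Morc1tg/tg libraries lie beyond all 4 Morc1tg/+ libraries, and most rises start from levels under 1 RPKM, as Poteg from 0 to between 6.90 and 11.6 RPKM.

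The promoter windows of RefSeq (GRCm38.p6, another build than that of the counts, 250 bases before to 50 bases after each start site) were matched by symbol to 9814 of the 14019 tested genes, 70.0% of them. A gene with several windows was given the mean over them. In these genes the dinucleotide CG, the site of DNA methylation, occurred a median of 21 times. Of the 42 genes that rose by over 2 on the log2 scale, 25 had a window, with a median of 4 CG, and 17 of the 25 (68.0%) held at most 5 CG. The share was 8.00% of the tested genes with a window and 43.6% of all 32851 RefSeq windows, counted singly and not per gene, whose median was 7 CG. A gene near 0 in Morc1tg/+ could pass the filter on low counts only through its reads in Morc1tg/tg, so that the tested genes are no matched background and nothing is read from the difference. Of the 32 genes that fell by over 2, 26 had a window, with a median of 7 CG, and 9 of these genes (34.6%) held at most 5. Among genes that rose by over 1 the share was smaller, 22 of 64 genes with a window (34.4%), and among those that fell by over 1 it was 16 of 111 (14.4%). Over all genes called higher the median was 21 and over all called lower 22. With fewer than 80% of the tested genes matched, these counts are a description only. The windows of 4 of the largest rises, with few CG, and of Ky, which had many, are shown first. The windows of Rarb and Stra8 follow, because both genes fell and both are known targets of retinoic acid. CG is in capitals, and each line runs 5′ to 3′ on the strand of the gene.
Gm1698: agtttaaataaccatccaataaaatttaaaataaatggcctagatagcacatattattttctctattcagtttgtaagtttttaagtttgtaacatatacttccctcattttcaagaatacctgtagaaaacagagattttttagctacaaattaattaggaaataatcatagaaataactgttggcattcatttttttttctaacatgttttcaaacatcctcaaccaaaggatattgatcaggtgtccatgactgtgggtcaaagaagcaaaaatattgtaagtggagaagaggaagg
Col6a3: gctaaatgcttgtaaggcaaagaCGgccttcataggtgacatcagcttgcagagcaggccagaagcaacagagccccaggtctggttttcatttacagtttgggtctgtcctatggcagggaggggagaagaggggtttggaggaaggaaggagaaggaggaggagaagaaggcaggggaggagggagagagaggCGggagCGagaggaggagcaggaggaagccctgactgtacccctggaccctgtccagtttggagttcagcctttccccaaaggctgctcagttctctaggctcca
Slc15a2: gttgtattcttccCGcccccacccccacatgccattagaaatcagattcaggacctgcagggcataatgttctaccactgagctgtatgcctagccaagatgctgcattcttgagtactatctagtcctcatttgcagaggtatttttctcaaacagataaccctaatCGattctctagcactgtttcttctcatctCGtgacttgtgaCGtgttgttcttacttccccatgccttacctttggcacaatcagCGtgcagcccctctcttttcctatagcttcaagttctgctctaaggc
Cd209c: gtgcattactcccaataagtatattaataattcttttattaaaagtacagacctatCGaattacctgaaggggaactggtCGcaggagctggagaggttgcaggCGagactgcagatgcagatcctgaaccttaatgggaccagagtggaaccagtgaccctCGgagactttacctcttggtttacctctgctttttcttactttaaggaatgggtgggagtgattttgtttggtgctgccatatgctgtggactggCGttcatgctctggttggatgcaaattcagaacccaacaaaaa
Ky: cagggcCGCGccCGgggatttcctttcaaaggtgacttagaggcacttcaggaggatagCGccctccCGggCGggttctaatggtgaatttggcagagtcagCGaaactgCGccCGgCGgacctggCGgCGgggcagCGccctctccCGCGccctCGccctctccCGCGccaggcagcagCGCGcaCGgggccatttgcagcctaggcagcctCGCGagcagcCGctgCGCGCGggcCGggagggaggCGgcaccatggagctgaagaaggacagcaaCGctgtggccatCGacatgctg
Rarb: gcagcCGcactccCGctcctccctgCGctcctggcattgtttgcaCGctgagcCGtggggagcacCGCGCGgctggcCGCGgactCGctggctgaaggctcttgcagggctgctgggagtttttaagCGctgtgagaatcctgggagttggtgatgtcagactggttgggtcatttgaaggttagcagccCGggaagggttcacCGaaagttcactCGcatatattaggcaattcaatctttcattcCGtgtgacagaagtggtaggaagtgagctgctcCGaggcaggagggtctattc
Stra8: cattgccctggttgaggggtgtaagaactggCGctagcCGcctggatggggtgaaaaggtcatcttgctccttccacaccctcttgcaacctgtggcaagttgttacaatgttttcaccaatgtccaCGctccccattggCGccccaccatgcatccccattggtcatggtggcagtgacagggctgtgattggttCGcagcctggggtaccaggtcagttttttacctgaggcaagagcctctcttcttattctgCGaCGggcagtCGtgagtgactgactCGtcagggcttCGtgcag

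In GRCm38.p6 these windows are chr8:27582442-27582741 on the plus strand for Gm1698, chr1:90843922-90844221 on the minus strand for Col6a3, chr16:36784913-36785212 on the minus strand for Slc15a2, chr8:3946814-3947113 on the minus strand for Cd209c, chr9:102505888-102506187 on the plus strand for Ky, chr14:16575427-16575726 on the minus strand for Rarb and chr6:34920698-34920997 on the plus strand for Stra8. They hold 0, 3, 5, 5, 31, 17 and 10 CG in that order. The letters AGGTCA and AGTTCA, short motifs that retinoic acid receptors are known to bind, were searched on both strands. Of the tested genes with a window, 24.3% held at least 1 of them in some window, so that a match is common. AGTTCA occurred 1 time in the window of Col6a3 and 1 time in that of Rarb, AGGTCA occurred 2 times in that of Stra8, and neither occurred in the other 4.

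A further group was the study's list of genes with a start site near a region that was less methylated in mutant germ cells. The study chose it on mice of this line, so that it is not independent evidence of a direction. Of its 20 genes, 19 were listed in the files and 13 were tested. Of the 13, 5 were higher (38.5%, against 6.43% of all tested genes) and 0 lower, with a median of 0.24. Neb, the giant muscle protein nebulin, had 6.81, 7.42, 7.72 and 7.13 RPKM in Morc1tg/+ and 17.5, 18.0 and 18.4 RPKM in Morc1tg/tg (1.23 ± 0.0730, adjusted p = 1.14e-12). Kat2b, a histone acetyltransferase, rose from 3.68 to 8.42 RPKM (1.12 ± 0.124) and Cdkl4, a kinase gene, from 0.209 to 1.29 RPKM (2.50 ± 0.473). In all 3 genes every Morc1tg/tg library lay above every control. Tmc2, a channel protein of sensory hair cells, was called (1.78 ± 0.414, adjusted p = 0.00484) but not without Morc1tg/tg replicate 3 (0.0512). Usp28, a ubiquitin protease, had 17.2 and 21.99 RPKM and was called (adjusted p = 0.0294), but not without Morc1tg/+ replicates 1, 3 or 4 or Morc1tg/tg replicates 2 or 3. Without Morc1tg/tg replicate 3, 3 of the list were called.

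Markers of undifferentiated spermatogonia, the cells that include the stem cells, were higher where they were called. Of the 23 tested members of the list, 10 rose (43.5%) and 0 fell, the median was 0.41, and all 23 log2 fold changes were above 0. The shares of this list and of those below stand beside 6.43% of all tested genes called higher and 5.79% lower. Bcl6b, a repressor that GDNF induces in spermatogonial stem cell cultures, had 6.48, 5.55, 5.23 and 3.69 RPKM in Morc1tg/+ and 8.45, 11.4 and 11.3 RPKM in Morc1tg/tg (0.91 ± 0.142, adjusted p = 8.99e-05). Cdh1, the adhesion protein E-cadherin, had 8.21, 9.37, 8.64 and 9.85 RPKM against 13.7, 13.6 and 15.4 RPKM (0.58 ± 0.101, adjusted p = 0.000327). In both genes the groups did not overlap. Zbtb16, the transcription factor PLZF, rose from 35.8 to 50.2 RPKM (0.41 ± 0.0688). Among the parts of the GDNF pathway, the co-receptor gene Gfra1 rose from 18.4 to 27.0 RPKM (0.47 ± 0.0840), the receptor tyrosine kinase gene Ret from 24.0 to 32.4 RPKM (0.35 ± 0.0744), and the target gene Etv5 from 26.2 to 38.2 RPKM (0.46 ± 0.0820). Lhx1, Lin28a, Glis3 and Foxo1 were the other 4 called members, between 0.23 and 0.42. Nanos2 (0.50 ± 0.306), Nanos3 (0.75 ± 0.292) and Id4 (0.05 ± 0.134) did not pass the test. Between 7 and 11 of the list were called when 1 library was left out. In the fit over 20 libraries 1 was called, Bcl6b, where 77 of all genes were called higher.

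The wider list of GDNF and FGF signalling held 29 tested genes, of which 9 rose (31.0%) and 3 fell (10.3%), with a median of 0.30. Besides Gfra1, Ret and Etv5, the rises were of Egr4 (0.61 ± 0.140), Etv4 (0.48 ± 0.134), Dusp6 (0.40 ± 0.106), Egr1 (0.32 ± 0.0980), Spred2 (0.30 ± 0.101) and Ier3 (1.37 ± 0.433), which are transcription factors and feedback inhibitors induced by growth factor signals. The falls were of Fgfr3, a receptor (-0.53 ± 0.136), and of the early response genes Fosb (-0.95 ± 0.247) and Jun (-0.67 ± 0.218). This count was less stable, with 5 rises without Morc1tg/+ replicate 1, without Morc1tg/+ replicate 3 or without Morc1tg/tg replicate 2, and between 1 and 4 falls when 1 library was left out. No member was called in the fit over 20 libraries, which called 125 of all genes.

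Among 11 tested markers of differentiating spermatogonia 5 fell (45.5%), 1 rose (9.09%) and 5 were not called, with a median of -0.09. Stra8, which retinoic acid induces before meiosis, had 48.4, 43.6, 37.4 and 47.6 RPKM in Morc1tg/+ and 23.1, 23.0 and 20.3 RPKM in Morc1tg/tg (-1.08 ± 0.0979, adjusted p = 1.40e-08). Prss50, a testis protease gene, had 47.2, 31.8, 34.9 and 39.9 RPKM against 15.6, 15.5 and 11.8 RPKM (-1.51 ± 0.122, adjusted p = 1.48e-09). Kit, the receptor that marks differentiation, had 24.8, 20.8, 23.2 and 24.0 RPKM against 19.105, 15.6 and 15.5 RPKM (-0.55 ± 0.0881, adjusted p = 0.000128). No Morc1tg/tg library of these 3 genes reached the lowest control. Dmrtb1, a factor of the passage from mitosis to meiosis, fell from 51.5 to 31.0 RPKM (-0.81 ± 0.112). Rarg, a retinoic acid receptor, fell from 6.92 to 5.45 RPKM (-0.42 ± 0.136, adjusted p = 0.0403), a call that was kept only when Morc1tg/+ replicate 2 or Morc1tg/tg replicate 2 was the library left out. Ccnd2, a cyclin, rose from 18.9 to 30.3 RPKM (0.60 ± 0.0824, adjusted p = 1.43e-05). Sohlh1, a factor of spermatogonial differentiation, was at 16.0 and 16.2 RPKM in the 2 genotypes and did not pass. Leaving out 1 library left 4 or 5 falls and the same count of 1 rise. The fit over 20 libraries kept only 1 rise and 0 falls, where 77 of all genes were called higher and 48 lower.

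**Figure D2:**
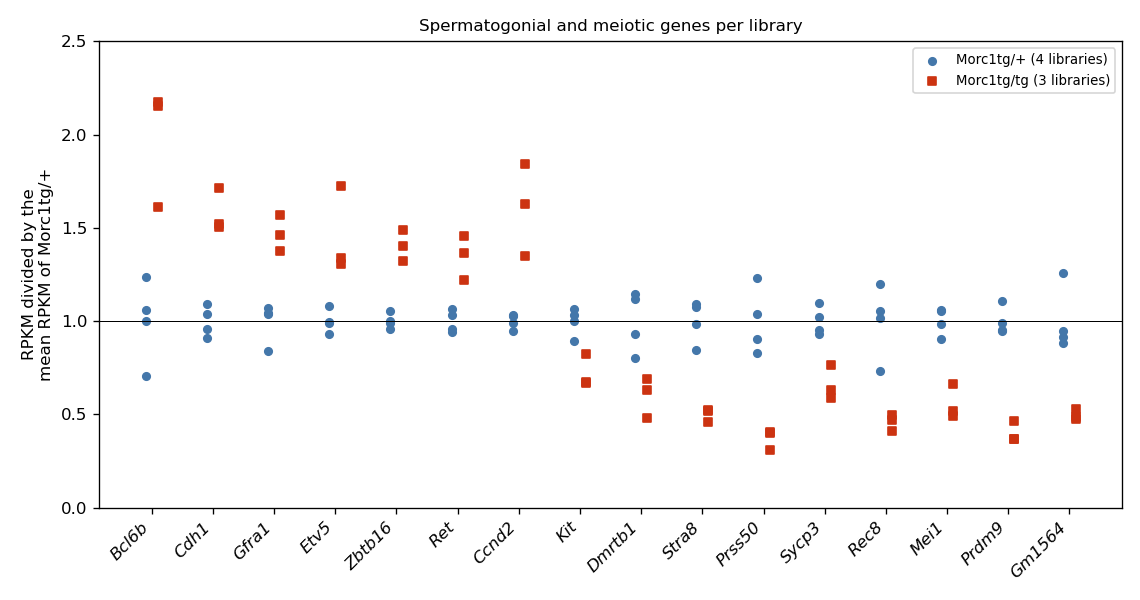
RPKM of 16 spermatogonial and meiotic genes in each library, divided by the mean of the 4 Morc1tg/+ libraries of that gene, with points for Morc1tg/+ and squares for Morc1tg/tg. From Bcl6b to Ccnd2 the Morc1tg/tg libraries lie above the controls, and from Kit to Gm1564 they lie below them, as in Stra8 with means of 44.2 and 22.2 RPKM.

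Genes of the retinoic acid pathway were lower in part. Of 22 tested, 8 fell (36.4%) and 1 rose (4.55%), and the median was -0.44. Rarb, a retinoic acid receptor that retinoic acid itself induces, had 0.238, 0.218, 0.285 and 0.110 RPKM in the controls (43 reads) and no read in the 3 Morc1tg/tg libraries, at least 11.0-fold lower against a floor of 3 reads over the group (adjusted p = 0.00334). Rec8, a cohesin subunit and another target, fell from 5.25 to 2.42 RPKM (-1.20 ± 0.195). Stra6, the receptor for the vitamin A carrier, fell from 1.52 to 0.668 RPKM (-1.27 ± 0.345) and Rbp4, the carrier itself, from 20.4 to 12.6 RPKM (-0.77 ± 0.149). Aldh1a2, an enzyme of retinoic acid synthesis, fell from 7.22 to 5.07 RPKM (-0.59 ± 0.161), whereas Aldh1a3, another such enzyme, rose from 1.03 to 2.24 RPKM (1.03 ± 0.227). Crabp1, a binding protein, fell from 44.1 to 35.0 RPKM (-0.42 ± 0.120). The number of falls dropped to 3 without Morc1tg/+ replicate 3, to 4 without Morc1tg/tg replicate 1 and to 5 without Morc1tg/+ replicate 1. It was 2 in the limma-trend fit and 1, with 0 rises, in the fit over 20 libraries. These fits called 1.16% and 0.270% of all genes lower. Whole testis had more of Rarb RNA than the sorted cells (1.22 RPKM in Morc1tg/+ and 1.20 RPKM in Morc1tg/tg). In the sorted cells 4 of 17 tested Sertoli cell markers were also called lower and 13 were not called (their values follow further on). The part of the Sertoli cell markers in the change of Rarb, Stra6, Rbp4 and Aldh1a2 was not tested.

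Genes of meiotic prophase fell where they were called. Of 16 genes of the synaptonemal complex and the meiotic cohesin, 6 fell (37.5%) and 0 rose, the median was -0.23, and none had a log2 fold change above 0. Sycp3, a protein of the chromosome axis, had 27.6, 24.0, 25.9 and 23.5 RPKM in Morc1tg/+ and 14.9, 16.0 and 19.3 RPKM in Morc1tg/tg (-0.67 ± 0.124, adjusted p = 0.000608). The other called falls, besides Rec8, were Ccdc79 (-0.68 ± 0.171), Syce2 (-0.44 ± 0.105), Sycp2 (-0.26 ± 0.0766) and Sycp1 (-0.25 ± 0.0720). Of 25 genes of meiotic recombination 7 fell (28%) and 0 rose, with a median of -0.24. Prdm9, the methyltransferase that sets the sites of recombination, had 10.2, 9.12, 8.75 and 8.70 RPKM against 4.27, 3.40 and 3.40 RPKM (-1.39 ± 0.129, adjusted p = 1.89e-08), and this call held under every alternative. Neither Sycp3 nor Prdm9 had overlapping groups. Mei1 fell from 6.14 to 3.42 RPKM (-0.92 ± 0.135), Dmc1, a strand exchange protein, from 17.8 to 14.1 RPKM (-0.41 ± 0.105), and Tex11 from 25.8 to 20.5 RPKM (-0.40 ± 0.0867). Without Morc1tg/tg replicate 2, 3 of the first list and 3 of the second were called, and Dmc1 and Ccdc79 were among those lost. The limma-trend fit called 3 and 2 falls in the lists, and the fit over 20 libraries 0 and 1. Of all genes, 1.16% were lower in the first of these fits and 0.270% in the second.

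Among 14 regulators of meiotic entry Stra8, Ythdc2 and Gm1564 fell (3 genes, 21.4%) and 0 rose, with a median of -0.07. With 1 library left out 2 or 3 fell, and 1 rose without Morc1tg/tg replicate 2, and 1 rose with no filter on low counts. Gm1564, the gene now known as Meioc, which is needed for meiotic prophase, had 35.6, 25.9, 25.0 and 26.9 RPKM in the controls and 14.9, 13.8 and 13.5 RPKM in Morc1tg/tg (-1.08 ± 0.0953, adjusted p = 7.09e-09), without overlap and under every alternative. Ythdc2, its partner, had 6.76 and 5.56 RPKM, and its call was lost without Morc1tg/+ replicates 1, 2 or 4 or Morc1tg/tg replicate 2. Of 17 genes of pachytene and later germ cells that were tested, 3 fell (17.6%) and 0 rose, against 5.79% and 6.43% of all tested genes. The falls were Ybx2 (-0.58 ± 0.108), Mybl1 and Odf2, with 1 fall left without Morc1tg/tg replicate 2. Outside the lists, Ly6k, a surface protein of male germ cells, fell from 8.21 to 2.26 RPKM (-1.93 ± 0.296), and Fgf11, a growth factor family gene, had 6.20, 5.33, 6.30 and 5.59 RPKM against 1.92, 1.55 and 2.48 RPKM (-1.64 ± 0.174, adjusted p = 2.27e-07). Nothing of Fgf11 overlapped between the genotypes, and its call held under every alternative, as did that of BC051142 (3.64 to 0.681 RPKM, -2.49 ± 0.282).

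**Figure D3:**
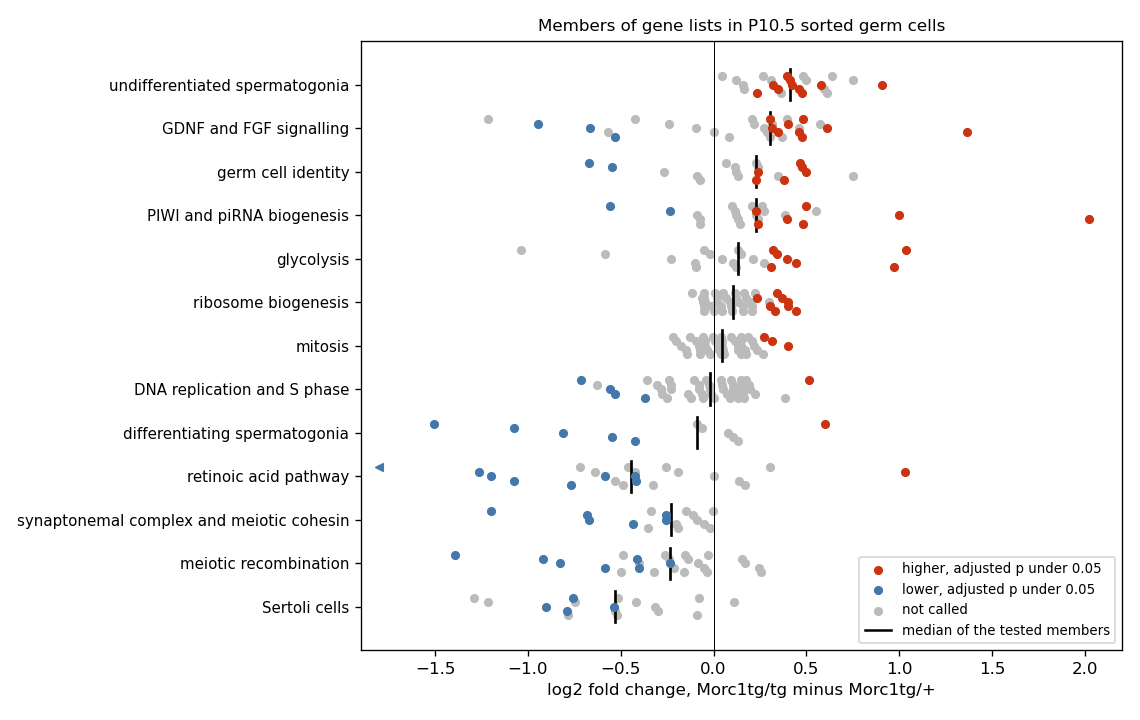
Log2 fold change of each tested member of 13 gene lists in the sorted germ cells, with called rises, called falls and genes not called in different colours and the median of each list as a black bar. Members of the undifferentiated spermatogonia list lie above 0 and those of the synaptonemal complex list at or below 0. Rarb, at -6.45, lies beyond the axis and is drawn as a triangle at its left edge.

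General germ cell genes rose more often than they fell where they were called. Of 19 tested genes of germ cell identity 6 rose and 2 fell, with a median of 0.23. The falls were Kit and Sycp3. Dazl, an RNA binding protein of all these stages, had 229 ± 33.6 RPKM (SD, n = 4) in Morc1tg/+ and 253 ± 25.3 RPKM (SD, n = 3) in Morc1tg/tg and did not pass. Gtsf1, a piRNA pathway factor, rose from 28.5 to 42.6 RPKM (0.50 ± 0.120), and Ddx4, the germ cell helicase, had 53.2 and 65.8 RPKM (adjusted p = 0.0418). The 6 rises fell to 2 without Morc1tg/+ replicate 3 or 4 and to 3 without Morc1tg/tg replicate 3. The 24 tested genes of the PIWI and piRNA pathway, which silences transposable elements, included 7 rises (29.2%) and 2 falls (8.33%), with a median of 0.23. Tdrd5, a component of germ granules, rose from 15.1 to 22.3 RPKM (0.48 ± 0.100) and Gpat2 from 17.9 to 24.8 RPKM (0.39 ± 0.0935). The rises of Tdrd6 (0.0565 to 0.244 RPKM, 2.02 ± 0.552) and Spocd1 (1.30 to 2.76 RPKM, 1.00 ± 0.300) were larger but were both lost without Morc1tg/tg replicate 1 or 2, and that of Spocd1 also without Morc1tg/+ replicate 1 or 3. Between 4 and 8 of the list were higher when 1 library was left out, with 4 without Morc1tg/+ replicate 3, Morc1tg/tg replicate 1 or Morc1tg/tg replicate 2, and between 0 and 2 were lower. Epcam, which the sort used, was at 33.2 and 32.9 RPKM.

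Among genes of DNA methylation and its removal, 17 were tested, with 2 rises (11.8%) and 3 falls (17.6%) and a median of 0.07. Mbd2, a reader of methylated DNA, rose from 27.4 to 45.6 RPKM (0.65 ± 0.0915, adjusted p = 2.04e-05), and Tet3, an enzyme that oxidises methylcytosine, fell from 14.0 to 10.1 RPKM (-0.55 ± 0.0902, adjusted p = 0.000149). The methyltransferases Dnmt1 (71.4 and 82.7 RPKM) and Dnmt3a (8.74 and 9.29 RPKM) did not pass, and 1 or 2 rises and 1 to 4 falls were called with 1 library left out, with 1 fall without Morc1tg/tg replicate 2. Of 34 Polycomb group genes 3 rose (8.82%) and 2 fell (5.88%), near the 6.43% and 5.79% of all tested genes, with a median of 0.01. Phc3 (-0.66 ± 0.101) and Pcgf2 (-0.60 ± 0.0955), both subunits of Polycomb repressive complex 1, fell, and Pcgf6, another such subunit, rose from 9.15 to 15.1 RPKM (0.64 ± 0.137). Without Morc1tg/+ replicate 1 or Morc1tg/tg replicate 3 fewer Polycomb genes rose, and the lowest count was 1. In the Morc family 2 of 4 tested genes were lower, Morc1 and Morc4 (2.31 to 1.29 RPKM, -0.92 ± 0.191), and Morc2a and Morc3 did not pass. Among 35 imprinted genes 3 rose (8.57%) and 2 fell (5.71%), also near the shares of all genes, with Mest at 3.77 and 6.74 RPKM (0.76 ± 0.147), Igf2 at 24.1 and 34.8 RPKM (0.45 ± 0.0800) and Peg3 at 6.20 and 4.68 RPKM (-0.48 ± 0.101). With 1 library left out 2 to 4 imprinted genes rose and 1 or 2 fell, with 1 fall without Morc1tg/+ replicates 1, 2 or 4 or Morc1tg/tg replicates 2 or 3.

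Genes of glycolysis rose where they were called, 7 of 21 (33.3%), with 0 falls and a median of 0.13. Slc2a3, a glucose transporter, rose from 0.913 ± 0.166 RPKM (SD, n = 4) to 1.99 ± 0.186 RPKM (SD, n = 3), without overlap (1.04 ± 0.184, adjusted p = 0.000402). The enzymes Eno1 (0.44 ± 0.0926) and Pkm2 (0.39 ± 0.0827) rose from 21.2 to 30.4 RPKM and from 84.1 to 117 RPKM. Ldha, lactate dehydrogenase, rose from 2.03 to 4.25 RPKM (0.97 ± 0.239), a call that was lost without Morc1tg/tg replicate 2, when 4 of the list rose and 1 fell. A fall was also called without Morc1tg/tg replicate 3. Ribosome biogenesis held 8 rises (20%) and 0 falls among 40 genes, with a median of 0.11. Mybbp1a (0.37 ± 0.0755), Polr1c, a subunit of RNA polymerases I and III (0.40 ± 0.0928), and Nop14 (0.34 ± 0.0751) were examples. Between 5 and 7 of them were called when 1 library was left out, with 5 without Morc1tg/+ replicate 3 or Morc1tg/tg replicate 3. Of 83 ribosomal protein genes 9 rose (10.8%) and 2 fell (2.41%), against 6.43% and 5.79% of all genes. With 1 library left out there were 1 to 15 rises, with 1 without Morc1tg/+ replicate 1 or replicate 3, and 2 falls except without Morc1tg/tg replicate 1, when there were 4. Rps4x rose (0.66 ± 0.119) and Rpl39 fell (-0.49 ± 0.102), both X-linked.

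Of 43 mitotic genes 3 rose (6.98%) and 0 fell, with a median of 0.04. Of 46 genes of DNA replication and S phase 1 rose (2.17%) and 4 fell (8.70%), with a median of -0.02. The shares of mitotic rises and replication falls are near the 6.43% and 5.79% of all tested genes. The falls were E2f2 (-0.71 ± 0.151), Ccne2, a cyclin of the start of S phase (18.51 to 13.3 RPKM, -0.56 ± 0.0940), Rrm2 (-0.53 ± 0.114) and Pcna, the replication clamp (-0.37 ± 0.0882). With 1 library left out the replication list had 4 or 5 falls and the mitotic list between 1 and 3 rises, with 1 rise without Morc1tg/+ replicate 1 or Morc1tg/tg replicate 3. The core histone clusters held 5 rises (10%) and 6 falls (12%) among 50 tested genes, against 6.43% and 5.79% of all genes. Hist1h2ba, the testis-specific histone H2B gene, was among the most abundant genes that fell, with 329, 240, 261 and 266 RPKM in Morc1tg/+ and 144, 153 and 106 RPKM in Morc1tg/tg (-1.11 ± 0.103, adjusted p = 2.00e-08). Hist1h2aa, its neighbour, fell from 610 to 349 RPKM (-0.89 ± 0.119) and the predicted gene Gm12260 from 1319 to 758 RPKM (-0.87 ± 0.0877). In all 3 the groups were apart. Histone genes are near copies of each other, and reads shared by copies were likewise lost. Between 3 and 5 histone genes rose when 1 library was left out, with 3 without Morc1tg/+ replicate 4 or Morc1tg/tg replicates 2 or 3, and between 4 and 9 fell.

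Another 4 lists stand beside 6.43% of all tested genes called higher and 5.79% lower. There were 2 rises and 2 falls among 28 interferon and nucleic acid sensing genes. Among 46 genes of the DNA damage response and apoptosis there were 4 rises and 4 falls. A list of 23 genes named for H3K9 methylation and HP1 silencing had 4 rises (17.4%) and 2 falls (8.70%). Among 28 genes of cholesterol synthesis there were 1 rise and 1 fall. With 1 library left out these counts ranged from 1 to 2 and 0 to 2, from 3 to 5 and 0 to 3, from 1 to 3 and 1 to 3, and from 0 to 2 and 0 to 1. The 2 falls of the H3K9 list were Cbx1 and Prdm9. Prdm9 is the methyltransferase of recombination sites named above and is counted in both lists, so that its fall is not read as one of H3K9 silencing. Cdkn1a, the cell cycle inhibitor that p53 induces, was at 2.64 and 3.32 RPKM and Trp53 at 22.9 and 24.4 RPKM, neither called. Among 38 collagens 6 rose (15.8%) and 0 fell, with a median of -0.14. Besides Col6a3, these included Col19a1, which rose from 0.0344 to 0.679 RPKM (4.20 ± 0.545), Col13a1 (0.60 ± 0.130) and Col5a1 (0.41 ± 0.0846).

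The sorted cells were checked against markers of the other cells of the testis, since the gate may hold some of them. The sum over 20 germ cell genes was 680 to 810 RPKM in Morc1tg/+ and 800 to 892 RPKM in Morc1tg/tg. The sum over 19 Sertoli cell markers was 281 to 358 RPKM in Morc1tg/+ and 223 to 311 RPKM in Morc1tg/tg, against 4796 to 5814 RPKM in whole testis, and no Sertoli marker was without reads. The Sertoli sums of the genotypes overlapped. Of 17 tested Sertoli markers 4 fell (23.5%, against 5.79% of all tested genes) and 0 rose, with a median of -0.53, and 16 were negative. Cldn11, a tight junction protein, had 10.9, 9.92, 15.4 and 14.3 RPKM in the controls and 6.08, 9.84 and 5.60 RPKM in Morc1tg/tg (-0.90 ± 0.173), Wt1 fell from 6.77 to 4.16 RPKM (-0.79 ± 0.177), Defb19 from 38.3 to 24.0 RPKM (-0.76 ± 0.197) and Clu from 55.6 to 40.8 RPKM (-0.54 ± 0.175). Morc1tg/tg replicate 2 lay nearest to the controls. The falls were 8 without Morc1tg/tg replicate 2 and 2 without Morc1tg/+ replicate 3, and ranged from 2 to 8 over all libraries left out. Sox9 (6.07 and 4.80 RPKM) and Amh (3.23 and 1.97 RPKM), which define Sertoli cells, did not pass.

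Of the largest falls, Cst9 and Gata1 are genes that Sertoli cells are known to express, and both were far higher in whole testis. Cst9, a cystatin, had 1.58, 1.93, 2.52 and 2.42 RPKM in sorted Morc1tg/+ cells and 0.185, 0.348 and 0.0948 RPKM in Morc1tg/tg (-3.34 ± 0.691, adjusted p = 0.00183), and a mean of 42.3 RPKM in Morc1tg/+ whole testis. Gata1 had a mean of 1.11 against 0.266 RPKM in sorted cells (-2.13 ± 0.507, adjusted p = 0.00582) and 19.05 RPKM in whole testis. Both kept their calls without any 1 library and neither was called in the fit over 20 libraries. The part of the Sertoli markers in these falls was not tested.

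The other marker sums were small. Leydig cell markers came to 24.8 to 27.8 RPKM in Morc1tg/+ and 23.7 to 28.3 RPKM in Morc1tg/tg, with no read of Insl3, and 0 of 7 tested members were called. Peritubular and stromal markers came to 14.2 to 15.9 and 16.1 to 19.5 RPKM. Of the 10 tested, 6 had a log2 fold change below 0 and the median was -0.29, while Pdgfra (1.18 to 2.39 RPKM, 0.93 ± 0.164) and Col1a1 (6.93 to 9.26 RPKM, 0.34 ± 0.0955) were the 2 called members, both higher, the second lost without Morc1tg/+ replicate 3 or Morc1tg/tg replicates 1 or 2. Endothelial markers came to 7.29 to 9.43 and 10.1 to 10.46 RPKM with 0 of 8 called. Macrophage markers came to 6.14 to 8.17 and 5.55 to 10.2 RPKM with 0 of 5 called and no read of Emr1, Lyz2, C1qa, C1qc or Tyrobp. Red blood cell genes came to 0.415 to 4.21 and 0.735 to 1.70 RPKM. Hbb-b1, a globin gene, had 0, 2.63, 3.26 and 2.74 RPKM in Morc1tg/+ and 0.652, 0 and 0 RPKM in Morc1tg/tg, and its call (adjusted p = 0.0223) was lost without Morc1tg/tg replicate 2 or 3, in DESeq2, with the replicate block, in limma-trend and in the fit over 20 libraries. Without Morc1tg/+ replicate 2, 3 or 4 the gene did not pass the filter. The peritubular and endothelial sums did not overlap between the genotypes and were higher in Morc1tg/tg. The peritubular sum includes Col1a1, itself a collagen gene, so that it is not separate from the collagens. The part of these sums in the rises of the collagens was not tested.

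**Figure D4:**
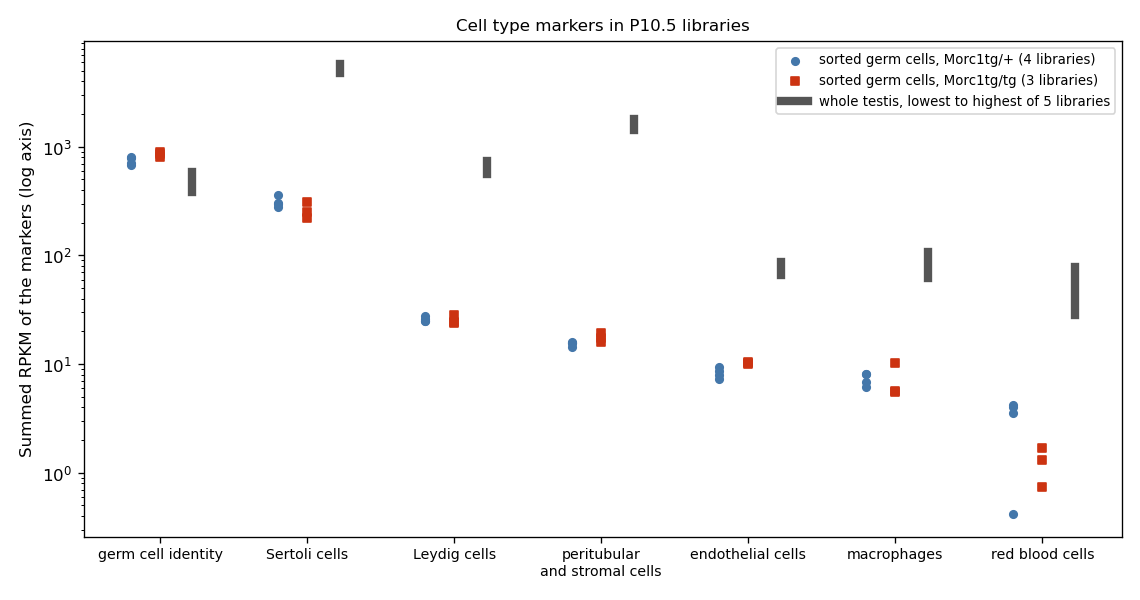
Summed RPKM of the markers of 7 cell types in each sorted library (points for Morc1tg/+, squares for Morc1tg/tg) and the range over 5 whole testis libraries of the same age (grey bars), on a log axis. The germ cell sum is higher in sorted cells (680 to 892 RPKM) than in whole testis, and the Sertoli sum (223 to 358 RPKM) is far below that of whole testis (4796 to 5814 RPKM).

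In the main fit a larger share of X-linked genes than of all genes fell. Of 533 tested X-linked genes 67 were lower (12.6%) and 26 higher (4.88%), with a median of -0.06, against 5.79% lower over all genes, and no other chromosome with more than 9 tested genes had over 7.76% lower. Tex16 fell from 21.5 to 16.2 RPKM (-0.49 ± 0.0837), Ndufa1, a subunit of respiratory complex I, from 27.2 to 14.8 RPKM (-0.96 ± 0.192), and Tex11, Rpl39, Morc4 and Gata1 are also X-linked. Mageb4, a melanoma antigen family gene, rose from 56.0 to 78.6 RPKM (0.41 ± 0.0738). Between 50 and 65 X-linked genes were lower when 1 library was left out, where 4.03% to 6.25% of all genes were lower. In the limma-trend fit 24 of 530 were lower, against 1.16% of all genes. In the fit over 20 libraries 1 of 533 was lower, against 0.270% of all genes, so that this fit showed no larger share. In whole testis 67 of 606 X-linked genes were lower and 22 higher, against 6.49% and 3.83% of all genes tested there.

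Of 32 tested genes within 5 Mb of Morc1, 2 were higher and 2 lower, a share near the 12.2% called over all genes. Myh15, a myosin gene 426581 bases away, rose from 0.0196 to 0.352 RPKM (3.90), Dppa4 from 9.94 to 14.6 RPKM (0.47), and Alcam (-1.08) and Bbx (-0.61) fell. Within 100 kb of another gene called the same way lay 27.1% of the genes called higher and 27.3% of those called lower, and, among changes of over 1 on the log2 scale, 14.0% of the rises and 8.59% of the falls. Such a share grows with the size of the set, and no share was computed for other sets of tested genes. Nothing is read from these shares about clustering.

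Whole testis of other mice of the same line and age gave 1576 calls among 15264 genes tested (10.3%), 585 higher (3.83%) and 991 lower (6.49%). Leaving out 1 library moved this to between 499 (without Morc1tg/tg replicate 3) and 2019 (without replicate 1), with 689 without Morc1tg/+ replicate 2 and 962 without Morc1tg/+ replicate 3. Of 13486 genes tested in both, 94 were higher in both (10.6% of the germ cell rises, 20.3% of the testis rises) and 205 lower in both (25.8% and 20.8%), while 12 germ cell rises were falls in testis and 17 germ cell falls were rises there. Of the 12 largest rises 10 were also called higher in testis, from Col6a3 (0.39), Slc15a2 (0.83), Ky (0.85) and Gdpd3 (0.92) to Ctsh (1.604), Cd209c (2.73), Poteg (5.66) and Gm1698 (5.69). The other two, Clec2g and Mup3, were at 0 RPKM in the testis controls and at 1.14 and 0.843 RPKM in Morc1tg/tg testis. Slco1a5 was not called (0.01) and the gene listed as 7SK was not tested there. Prdm9 (-1.67), Stra8 (-1.39), Prss50 (-2.02) and Gm1564 (-1.79) fell in testis as in sorted cells.

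The gene groups differed between sorted cells and whole testis. The genotype effect itself differed in 506 of 15587 genes by the interaction test (3.25%), higher in germ cells in 197 (1.26%) and lower in 309 (1.98%). In testis the mitotic genes fell in 34 of 43 and rose in 0, with a median of -0.42, and for 12 of them the germ cell effect was higher by the interaction test and for 0 lower. The synaptonemal complex and cohesin list fell in 15 of 16 (median -0.89), with 8 such differences, the recombination list in 19 of 25 (median -0.81), with 6, the list of germ cell identity in 13 of 20 (median -0.40), with 9, and the PIWI list in 9 of 25 (median -0.26), with 7. None of these differences was lower in sorted cells, and in each list the members not counted passed no such test. The 2 sets of libraries differ in kit, and this cannot be told apart from the difference between sorted cells and testis in single values. Undifferentiated spermatogonia genes in testis had 0 rises and 1 fall of 23 (median -0.03), with 1 difference, Cdh1 (0.57 ± 0.149, adjusted p = 0.0435). Sertoli markers in testis had 3 rises and 1 fall of 19 (median 0.16), with 4 differences, all lower in sorted cells, among them Cldn11 and Wt1. Other somatic markers also rose in testis, 9 of 16 peritubular (median 0.29), 7 of 14 macrophage (0.53), 5 of 12 endothelial (0.33) and 3 of 14 Leydig markers (0.28), with 0 falls. Their part in the falls of germ cell and mitotic genes in testis, and in the differences from sorted cells, was not tested.

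Col6a3 and Gdpd3 rose far more in sorted cells than in testis. Col6a3 was at 16.4 RPKM in Morc1tg/+ testis and 21.3 RPKM in Morc1tg/tg testis, and the difference between the effects was 6.07 ± 0.273 (adjusted p = 1.84e-10). For Gdpd3, at 4.66 and 8.78 RPKM in testis, it was 3.57 ± 0.478 (adjusted p = 0.000495). For Rarb it was -7.36 ± 1.25 (adjusted p = 0.00475), with 1.22 and 1.20 RPKM in testis. The interaction count depended on the testis libraries, with 132 differences without Morc1tg/+ testis replicate 2, 139 without replicate 3, 232 without Morc1tg/tg testis replicate 2 and 165 without replicate 3, and with 802 without germ cell Morc1tg/+ replicate 2.

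**Figure D5:**
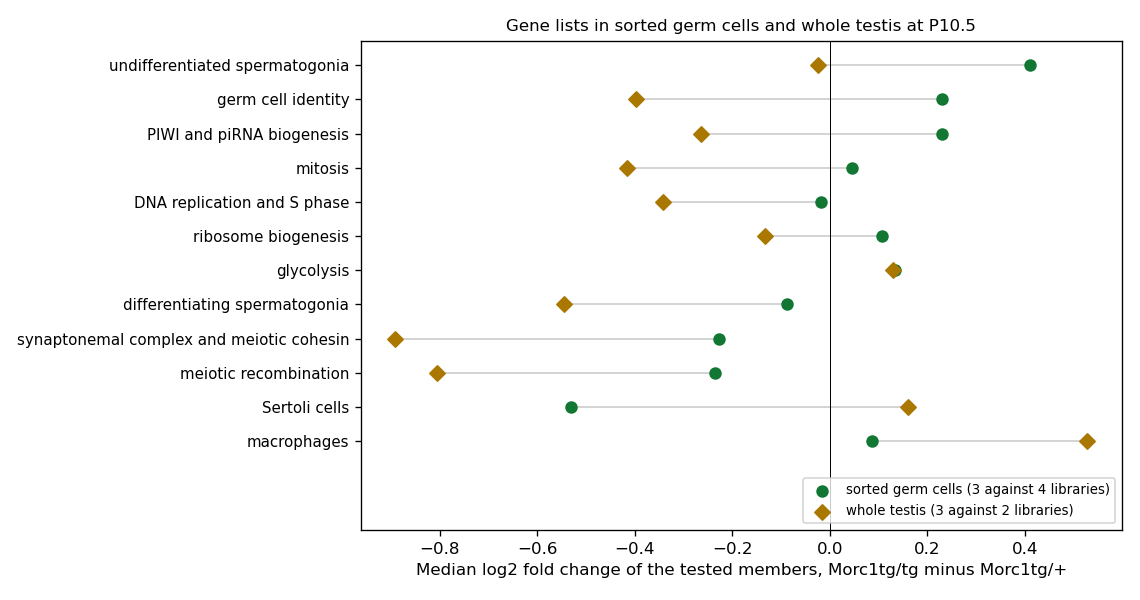
Median log2 fold change of the tested members of 12 gene lists in sorted germ cells (circles, 3 against 4 libraries) and in whole testis (diamonds, 3 against 2 libraries) at P10.5. The mitotic genes have medians of 0.04 and -0.42 and the synaptonemal complex genes -0.23 and -0.89.

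At P2.5, before the spermatogonia differentiate, 7 of 14413 tested genes were called (0.0486%), 6 higher (0.0416%) and 1 lower (0.00694%). All 7 were also called in the same direction at P10.5. Morc1 was the fall, from 26.0 to 8.94 RPKM at P2.5. The rises were Ctsh (0.0359 to 9.40 RPKM at P2.5), Cd209c (1.90 to 66.1 RPKM), Col6a3 (0.110 to 4.40 RPKM), 2610005L07Rik (1.95 to 13.2 RPKM), Cdh12, a cadherin (0.00550 to 2.15 RPKM), and Samd9l (0 to 2.85 RPKM). At P10.5 the last 3 had means of 24.0, 0.507 and 0.951 RPKM in Morc1tg/tg against 5.16, 0.00274 and 0.0499 RPKM in Morc1tg/+. The P2.5 libraries were shallower, with 2413679 to 6880081 reads on genes against 7474627 to 9641942 at P10.5. Clec2g (6.34 ± 1.04, adjusted p = 0.0530) and Ky (4.25 ± 0.740, adjusted p = 0.0820) did not pass at P2.5, and Slco1a5 was at 0 RPKM in both genotypes. A gene not called at P2.5 can therefore not be read as unchanged.

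The genotype effect differed between P10.5 and P2.5 in 71 of 15736 genes (0.451%), higher at P10.5 in 43 (0.273%) and lower in 28 (0.178%). Prdm9 was at 1.42 RPKM in Morc1tg/+ and 3.00 RPKM in Morc1tg/tg cells at P2.5, and its effect at P10.5 was lower by 2.43. Prss50 was at 4.90 and 12.1 RPKM (difference -2.72), Gm1564 differed by -1.58, and Stra8 was at 19.6 and 22.4 RPKM (-1.26, adjusted p = 0.0119). Bcl6b was at 34.3 and 25.0 RPKM (1.39) and Cdh1 at 25.9 and 17.3 RPKM (1.18). Sort and strain background differ between the stages and cannot be told apart from age, and the number of differences was unstable, from 21 without Morc1tg/+ replicate 4 or Morc1tg/tg replicate 3 of P10.5 to 1729 without P2.5 Morc1tg/tg replicate 2.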

How the data were processed

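RNA was measured by RNA-Seq in germ cells sorted from 7 mice at P10.5. The authors deposited 1 table per library with the raw read count per gene and the RPKM the authors computed from it, with coordinates in mm9. The authors kept only reads with a single mapped location and counted them with HTSeq. The submitters' notes also name Bowtie, but the tool that aligned reads to genes was not stated in the sources at hand. Genes that passed filterByExpr were normalised with TMM and tested with edgeR 4.0.16 (quasi-likelihood, R 4.3.3), with Benjamini-Hochberg adjustment at 0.05. Interaction terms tested whether the genotype effect differed from that in whole testis or at P2.5. Fits with the replicate number as a block used only libraries whose number occurred in both genotypes of that stage and tissue. Alternatives were DESeq2 1.42.0 and its size factors, limma 3.58.1 on log2(RPKM + 0.1), no filter, the replicate number as a block, a fit over 20 sorted libraries, and each library left out. In simulated counts for 14019 genes, 74 of 100 genes changed by 1 on the log2 scale and 90 of 100 changed by 2 were called, with 10 unchanged genes. Named genes were Morc1 and Tyr, the 12 largest rises and falls whose libraries did not overlap and whose higher group had a mean of at least 1 RPKM, the 8 most abundant called genes in each direction, up to 4 called members per list with others of known role, the genes of the study's methylation list, and the 3 largest interaction differences each way. Those of other kinds (genes near Morc1, X-linked genes, P2.5 calls) were chosen after their values were seen. Groups, lists and this rule were chosen with earlier results of these data known. Depth was 7474627 to 9641942 reads on genes, and since reads carry no molecular identifiers, the floors used in folds cover counting error only. Repeats, bisulfite, ATAC and ChIP data were not analysed here.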

Additional observations from a re-analysis of the deposited data

Results flagged for a closer look

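In 10 of 239 genes examined, 1 Morc1tg/+ library lay far from the other 3, where chance gives about 1 in 20. Clec2g was at 0.0753 RPKM in replicate 3, 7SK at 0.626 in replicate 1, Mup3 at 0.236 in replicate 2 and Morc2b at 0.0639 in replicate 3, with the other 3 libraries of each at 0. Gfra1 (15.5 RPKM), Rrm2 (13.2) and Ddx4 (48.1) were low and Insig2 (8.20) high in replicate 4, Dnmt3a (9.94) was high in replicate 1, and Bsg (76.2) was low in replicate 2.

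The genotype effect differed between P10.5 germ cells and whole testis by the interaction test. On the log2 scale the germ cell effect was lower for Rarb (-7.36), Tinagl1 (-7.15), Sema3g (-7.11), Cst9 (-3.47) and Gata1 (-2.17). It was higher for Cdh19 (7.52), Bmp5 (6.08), Col6a3 (6.07), Slco1a5 (4.77) and Gdpd3 (3.57). Fitted values of genes with libraries at 0, such as Rarb and Cdh19, depend on the prior count and are no bound. Tinagl1, Sema3g, Cdh19 and Bmp5 did not pass the filter on low counts in the 7 germ cell libraries alone. They therefore have no tested germ cell effect of their own.

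Between P10.5 and P2.5 germ cells the effect at P10.5 was lower for 8030411F24Rik (-9.22), Fgf11 (-4.95), Nr4a3 (-4.32), Prss50 (-2.72), Prdm9 (-2.43) and Gm1564 (-1.58). It was higher for Gabra4 (7.93), Adcy10 (4.29), Nubpl (4.23), Nefm (1.40), Bcl6b (1.39) and Cdh1 (1.18). At P10.5 the effects of 8030411F24Rik, Nubpl, Adcy10 and Gabra4 were -0.35, 0.30, 0.54 and 0.00952. At P2.5 they were 8.40, -3.81, -3.90 and -7.38. Those of Fgf11 and Nr4a3 were -1.64 and -1.38 at P10.5 and 3.28 and 3.04 at P2.5. For Prss50, Prdm9, Gm1564, Nefm and Bcl6b the effect at P10.5 was the larger in size. No gene in this paragraph was called at P2.5.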

How the results depend on the processing

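DESeq2 size factors (1714 calls), DESeq2 (1752) and no filter (1893) left the 1712 germ cell calls within 1.5 times, while limma-trend on log2 RPKM gave 782 (589 higher, 193 lower) and the fit over 20 sorted libraries 125 (77 higher, 48 lower). Limma-trend took the deposited RPKM without TMM factors, and its median over all genes was 0.0714, against 0.00323 in the main fit. The cause of the lower counts was not tested. With 1 library left out the calls ranged from 1144 to 1824, the rises from 564 to 963 and the falls from 580 to 861. The deviations of same-numbered libraries from the mean of their genotype correlated at 0.0254 to 0.0622, so that the numbers were not taken to pair the mice. Among Morc1tg/+ replicates 1 to 3 the deviations of each Morc1tg/tg library nevertheless correlated best with those of its own number. With replicate 4 included, those of Morc1tg/tg replicate 1 correlated best with that one, at 0.0404. The replicate block, which Morc1tg/+ replicate 4 could not enter, gave 1464 calls, 1333 of them among the 1712. The same libraries without the block gave 1206 calls, 1164 of them among the 1712. The testis count ranged from 499 to 2019 with 1 library left out. The differences between germ cells and testis ranged from 132 to 802, were 1034 with a wild-type library added to the controls and 190 with the replicate block. Those between P10.5 and P2.5 ranged from 21 to 1729, were 401 without the filter and 6 with the replicate block. Of 225 named genes tested, 187 were called, and of these calls 3 were lost with DESeq2 size factors, 8 with DESeq2, 4 without the filter, 35 with the block, 95 with limma-trend and 159 in the fit over 20 libraries. Without Morc1tg/+ replicate 4 and with no block 48 were lost. None changed sign under these settings. Depth limits genes near 0 reads, such as Rarb.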
